A study of Mus musculus with 51 samples.

Results

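Of the 7 Myc-CaP tumors labelled sgUba1, 4 held more Uba1 RNA than every tumor of the sgNC control. These 4 tumors, replicates 4 to 7, were selected on their Uba1 RNA and are 4 of the 51 RNA sequencing libraries of the series. The study asked how the ubiquitin-activating enzyme of tumor cells bears on interferon signaling and on escape from immune cells. Its libraries come from cultured Myc-CaP cells, a mouse prostate cancer line driven by a Myc transgene, and from Myc-CaP and B16-BL6 melanoma tumors in which Uba1 was targeted, overexpressed or inhibited with the drug TAK-243. The tumors labelled sgUba1 carry the genotype Uba1-depletion, and the 3 control tumors, sgNC 1 to 3, carry a nontargeting guide and the genotype WT. Both groups are given as prostate tumor, cell type Epithelial, with NA as treatment, and both were made with lentiCRISPR v2, which also carries Cas9 and puromycin resistance. The other tumors used for reference are sgUba1 1 to 3, 3 tumors with an empty vector (EV), 4 with Uba1 overexpression (OE), 6 from vehicle-treated mice (Veh) and 5 from mice given TAK-243.

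The model limits what the group names can carry. Cells were transfected with plasmid, selected with puromycin and grown from single cells, so that each tumor group may stem from very few clones. The labels do not say which guide or which clone a tumor carries. Cells were injected under the skin of male FVB mice aged 6 to 8 weeks, on both flanks, and nothing in the labels shows that replicates came from separate mice, so the p-values measure only the spread between these samples. They also compare 4 tumors and 3 controls as chosen. The labels do not show whether tumors 4 to 7 and the controls were grown in 1 experiment. Clone, guide, mouse and experiment cannot be told apart from the level of Uba1 in these tumors.

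UBA1 starts most ubiquitin conjugation in mammalian cells: it activates ubiquitin with ATP and passes it to E2 enzymes, which work with E3 ligases to mark proteins, many of them for the 26S proteasome. UBA6 is the other E1 enzyme that activates ubiquitin, and Uba1y is a copy of Uba1 on the mouse Y chromosome. Interferons bind receptors that signal through JAK kinases and STAT factors. STAT and IRF factors then bind short promoter elements and raise antiviral genes, MHC class I genes and chemokines that call in T cells.

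The guides are shown because they name the exons at which Uba1 was to be disrupted. Capitals mark the PAM next to each target, read from the transcript. The target of guide sgUba1 #1 lies at chrX:20669136-20669155 (GRCm38) on the minus strand in coding exon 5 of transcript Uba1-201, and that of guide sgUba1 #2 at chrX:20670263-20670282 on the plus strand in coding exon 6. The nontargeting guide has no match in a Uba1 transcript and is shown without a PAM.
sgUba1 #1: taccaatgtcctcctcccgaAGG
sgUba1 #2: tagccgtggtatcaagctagTGG
Nontargeting control: acgtgtaaggcgaacgcctt

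Each library was counted per gene. Totals were 12904398, 12963055, 14168230 and 10685674 counts in sgUba1 tumors 4, 5, 6 and 7, and 11610440, 10668594 and 12552766 in sgNC tumors 1, 2 and 3. The sgUba1 tumors 1, 2 and 3 held 11548515, 11730028 and 11835783 counts. Levels are given as CPM, a gene's count per 1e+06 counts of a library size scaled over all Myc-CaP libraries, and "tumors 4 to 7" means the sgUba1 tumors of those numbers. A gene is called changed at an adjusted p under 0.05 in a fit across all genes, and fold changes are on the log2 scale with tumors 4 to 7 over the controls.

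Uba1 was higher in each of tumors 4 to 7 than in each control, which is how they were chosen, and no test is given for it. Tumors 4, 5, 6 and 7 held 332, 328, 334 and 339 CPM of Uba1, and sgNC tumors 1, 2 and 3 held 281, 286 and 301 CPM. The lowest of the 4 chosen tumors therefore stood at 328 CPM and the highest control at 301 CPM, while the 3 sgUba1 tumors outside the choice held 172, 178 and 183 CPM. The labelled genotype, Uba1-depletion, was thus not visible in the Uba1 RNA of tumors 4 to 7, and RNA does not show whether the protein was made. Means with SD were 333 ± 4.88 CPM over the 4 tumors, 289 ± 10.1 CPM over the 3 sgNC tumors and 178 ± 5.51 CPM over sgUba1 tumors 1 to 3. Among other tumors the means were 268 CPM in EV, 665 CPM in Uba1 OE, 319 CPM in Veh and 305 CPM in TAK-243 tumors, and the single Veh and TAK-243 tumors overlapped tumors 4 to 7. Cultured cells with the nontargeting guide held 631 CPM and cultured sgUba1 cells 347 CPM.

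**Figure D1:**
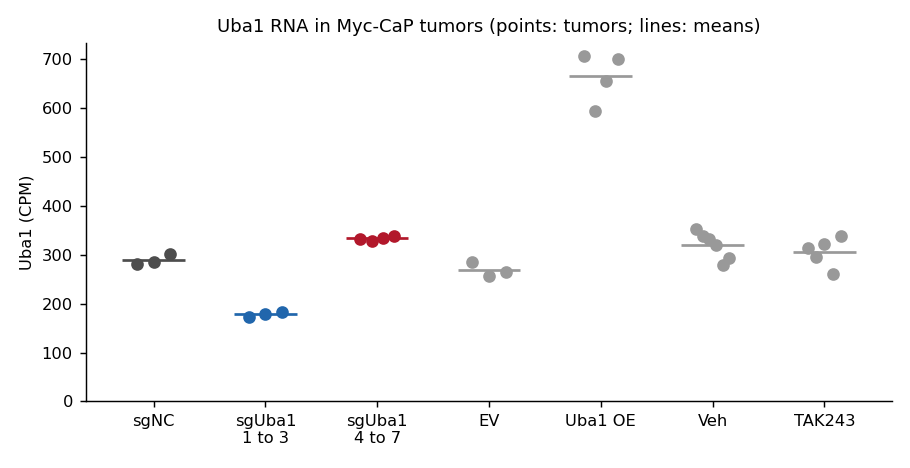
Uba1 RNA in CPM for each Myc-CaP tumor, by group, with a line at each group mean. Tumors 4 to 7 of the sgUba1 group lie between 328 and 339 CPM, above the sgNC tumors (281 to 301 CPM) and the sgUba1 tumors 1 to 3 (172 to 183 CPM).

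The other E1 genes for ubiquitin did not differ by the test. Uba6 held 53.5 to 58.6 CPM in tumors 4 to 7 and 48.8 to 64.5 CPM in sgNC tumors (log2 fold change -0.07, adjusted p = 0.688). Uba1y held 1.25 to 2.01 CPM in tumors 4 to 7 and 1.36 to 1.94 CPM in sgNC tumors (log2 fold change -0.17, adjusted p = 0.671). Both ranges overlapped. Around Uba1 (chrX:20658326-20683179), 15 genes within 1 Mb were tested, of which 3 were called higher and 2 lower, with a median log2 fold change of 0.11, beside 15.9% and 14.3% of all genes. The 3 were Slc9a7, a sodium-proton exchanger of the Golgi (1.19, adjusted p = 0.00223), Cdk16, a cyclin-dependent kinase (0.23, adjusted p = 0.0478), and Uxt, a prefoldin-like chaperone (0.44, adjusted p = 0.0389). The 2 were Rp2 (-0.35, adjusted p = 0.0414) and Zfp182 (-0.51, adjusted p = 0.0318).

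Tumors 4 to 7 were closer to each other than to the sgNC, sgUba1 1 to 3, EV and Uba1 OE tumors. Across 16623 genes, Pearson correlations of log2 CPM among the 4 tumors ran from 0.979 to 0.985, and those with sgNC tumors from 0.893 to 0.949. With EV tumors they ran from 0.949 to 0.956, and with sgUba1 tumors 1 to 3, which carry the same label, from 0.932 to 0.949, and with Uba1 OE tumors from 0.888 to 0.950. Genes are not independent replicates, so these values describe the libraries only. Among the controls, sgNC tumor 2 stood apart: its correlations with sgNC tumors 1 and 3 were 0.944 and 0.961, against 0.979 between those tumors. The transcript Malat1, a nuclear long noncoding RNA, took 8.92% of its counts, against 4.38% and 4.98% in sgNC tumors 1 and 3. Many results below are also given without this tumor.

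The tissue label was checked against prostate genes. The Myc gene, chosen after its values were seen, held 1361, 349 and 1262 CPM in sgNC tumors 1 to 3 and 983, 1103, 1094 and 870.4 CPM in tumors 4 to 7 and was abundant in all 7 tumors. Of the listed markers of prostate luminal epithelium, Epcam, Krt18 and Pbsn were at or near 0 in tumors 4 to 7 and in the controls alike. Others, also picked from their values, were read in both groups. Krt8 held 36.4, 288 and 41.7 CPM in sgNC tumors 1 to 3 and 127, 55.7, 43.9 and 66.4 CPM in tumors 4 to 7. For Hoxb13 these levels were 23.9, 10.2 and 18.4 CPM and 20, 21.1, 18.8 and 11.5 CPM. The markers were thus mixed and do not settle the labelled epithelial type.

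Against the controls, 4786 of 15836 genes tested differed (30.2%), with 2525 higher in tumors 4 to 7 (15.9%) and 2261 lower (14.3%). Higher genes included Pigr, F5, Ap3b2 and Otof, and lower genes included Npnt, Tenm4, Tdrd9 and Scube1. The largest changes named here and below were picked among called genes with no overlap between the 4 tumors and the 3 controls. Their lack of overlap was thus set by the choice. Changes of at least 2-fold numbered 879 higher and 898 lower, and the median log2 fold change of all genes was -0.02. The split by direction was not fixed. When the test and the measure were changed together, limma on log2(TPM + 1) called 4368 genes, with 1831 higher and 2537 lower. When any single tumor was left out, the calls numbered between 3398 and 5363. All 7 tumors labelled sgUba1, taken as 1 group against sgNC, gave 492 calls, with 186 higher and 306 lower.

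**Figure D2:**
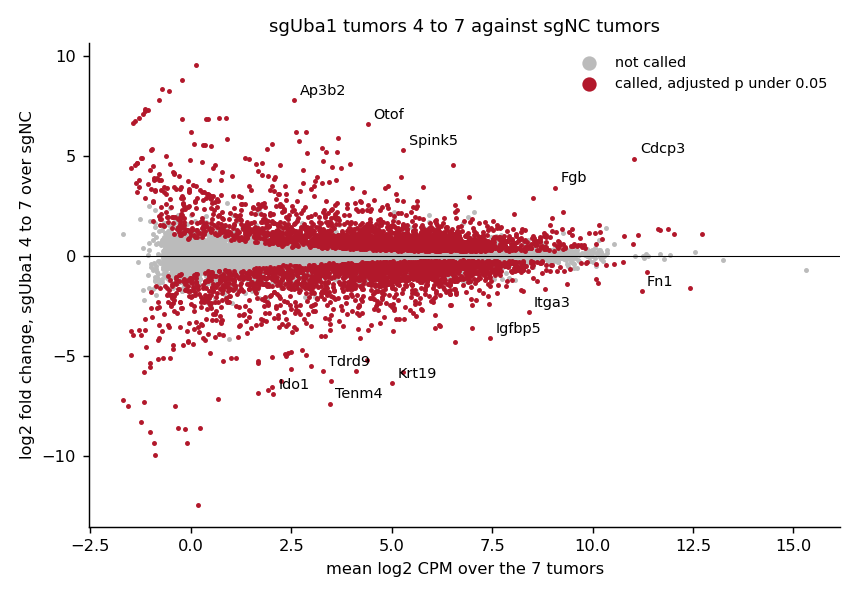
Log2 fold change of each gene tested (vertical axis) against its mean level in log2 CPM (horizontal axis), sgUba1 tumors 4 to 7 over sgNC tumors, with called genes in red and some genes named. Of 15836 genes, 2525 were called higher and 2261 lower.

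The largest increases were in genes hardly read in the controls. Pigr, the receptor that carries IgA across epithelia, held 0.378, 0.353 and 0.430 CPM in sgNC tumors 1 to 3 and 18.3, 21.1, 18.8 and 20.1 CPM in tumors 4 to 7 (log2 fold change 5.60, SE 0.17, adjusted p = 4.65e-06). All 4 tumors were far above every control, and the 4 values lay close together. Ap3b2, a subunit of the neuronal AP-3 vesicle coat, held 0.529, 0.0884 and 0.143 CPM in sgNC tumors 1 to 3 and 94.7, 65.5, 52.5 and 30.2 CPM in tumors 4 to 7 (log2 fold change 7.80, SE 0.62, adjusted p = 0.00024), with tumor 4 highest and tumor 7 lowest. F5, coagulation factor V, held 0.454, 0.530 and 0.789 CPM in sgNC tumors 1 to 3 and 56.9, 56.3, 42.3 and 25.5 CPM in tumors 4 to 7 (log2 fold change 6.20, SE 0.40, adjusted p = 8.55e-05). Otof, the calcium sensor for vesicle release in inner hair cells, held 5.22, 0.0884 and 1.0 CPM in sgNC tumors 1 to 3 and 179.7, 189, 179 and 298 CPM in tumors 4 to 7 (log2 fold change 6.59, SE 0.76, adjusted p = 0.000923). In each of these genes the groups were far apart, while tumor 7 was the lowest of the 4 for Ap3b2 and F5 and the highest for Otof. Without sgNC tumor 1 the log2 fold changes of Ap3b2 and Otof were 8.87 and 8.46.

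The other large increases fell in genes of varied function. Unc79, a subunit of a neuronal sodium leak channel complex, held 3.55, 0 and 1.29 CPM in sgNC tumors 1 to 3 and 109, 103, 82.1 and 121 CPM in tumors 4 to 7 (log2 fold change 5.93, adjusted p = 0.000739). Klk1, tissue kallikrein, held 1.29, 0.177 and 0.215 CPM in sgNC tumors 1 to 3 and 50.7, 50.7, 47.8 and 23.9 CPM in tumors 4 to 7 (log2 fold change 6.20, adjusted p = 0.000419). Of the controls, sgNC tumor 1 was the highest for both. Glrb, a glycine receptor subunit, held 3.48, 0 and 1.15 CPM in sgNC tumors 1 to 3 and 81.2, 106, 51.7 and 40.2 CPM in tumors 4 to 7 (log2 fold change 5.42, adjusted p = 0.00173). Rab11fip4, an effector of the recycling GTPase Rab11, held 0.378, 0.353 and 0.502 CPM in sgNC tumors 1 to 3 and 23.3, 21.9, 13 and 11.4 CPM in tumors 4 to 7 (log2 fold change 5.34, adjusted p = 0.000177). Spink5, an inhibitor of skin proteases, held 19.9, 0.0884 and 4.23 CPM in sgNC tumors 1 to 3 and 248, 325, 204 and 528 CPM in tumors 4 to 7 (log2 fold change 5.30, adjusted p = 0.00659), with tumor 7 highest and sgNC tumor 1 highest of the controls. Fam89a held 2.65, 0 and 2.37 CPM in sgNC tumors 1 to 3 and 57.2, 67.7, 66.4 and 73.1 CPM in tumors 4 to 7 (log2 fold change 5.23, adjusted p = 0.000851), and Gm12886 held 3.71, 0 and 2.94 CPM in sgNC tumors 1 to 3 and 73.9, 131, 45.4 and 93.4 CPM in tumors 4 to 7 (log2 fold change 5.20, adjusted p = 0.00186). For both, sgNC tumor 2 was at 0. Without sgNC tumor 1 the log2 fold changes were 7.17 for Unc79, 7.69 for Klk1, 6.76 for Glrb and 7.14 for Spink5.

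The largest decreases included genes of the cell surface and matrix that were present in every control. Npnt, an integrin ligand of the basement membrane, held 45.4, 52.2 and 52.8 CPM in sgNC tumors 1 to 3 and 0.501, 0.675, 0.521 and 0.416 CPM in tumors 4 to 7 (log2 fold change -6.56, SE 0.15, adjusted p = 1.03e-06). The controls were within a narrow range, and all 4 tumors were under 1 CPM. Tenm4, a teneurin adhesion protein, held 134, 285 and 188 CPM in sgNC tumors 1 to 3 and 0.860, 1.12, 1.37 and 1.5 CPM in tumors 4 to 7 (log2 fold change -7.40, SE 0.32, adjusted p = 1.7e-05). Scube1, a secreted and surface-bound EGF-domain protein, held 33.7, 64.1 and 36.8 CPM in sgNC tumors 1 to 3 and 0.215, 0.375, 0.586 and 0.333 CPM in tumors 4 to 7 (log2 fold change -6.86, SE 0.35, adjusted p = 3.83e-05). Tdrd9, a germline helicase of the piRNA pathway, held 83.1, 89.8 and 107 CPM in sgNC tumors 1 to 3 and 2.15, 1.12, 1.69 and 2.0 CPM in tumors 4 to 7 (log2 fold change -5.76, SE 0.20, adjusted p = 8.82e-06). For these 4 genes, lack of overlap between the groups was a condition of the choice.

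Other large decreases were smaller without sgNC tumor 2, which held the highest level of these genes. Ido1, which breaks down tryptophan and is induced by interferon-gamma, held 21.9, 152 and 40 CPM in sgNC tumors 1 to 3 and 0.358, 0.600, 0.977 and 0.333 CPM in tumors 4 to 7 (log2 fold change -6.93, SE 0.80, adjusted p = 0.000922). Without sgNC tumor 2 the log2 fold change was -5.74. Krt19, a simple epithelial keratin, held 206, 919 and 268 CPM in sgNC tumors 1 to 3 and 6.95, 9.15, 2.61 and 4.24 CPM in tumors 4 to 7 (log2 fold change -6.36, SE 0.66, adjusted p = 0.000637), and Krt15, a basal keratin, 166, 1140 and 450.4 CPM in sgNC tumors 1 to 3 and 13.1, 25.1, 3.0 and 1.33 CPM in tumors 4 to 7 (log2 fold change -5.81, adjusted p = 0.00438). The log2 fold changes of Krt19 and Krt15 were -5.40 and -4.88 without sgNC tumor 2. Cdsn, a desmosome protein of cornified skin, held 10.7, 255 and 11.3 CPM in sgNC tumors 1 to 3 and 1.43, 2.02, 0.782 and 0.499 CPM in tumors 4 to 7 (log2 fold change -6.29, adjusted p = 0.00891), and -3.22 without that tumor. Clcf1, a cytokine of the interleukin-6 family, held 14.9, 159 and 29.7 CPM in sgNC tumors 1 to 3 and 0.645, 2.25, 1.76 and 0.665 CPM in tumors 4 to 7 (log2 fold change -5.67, adjusted p = 0.00309, -4.07 without sgNC tumor 2). Npy, neuropeptide Y, held 62.5, 880.3 and 259 CPM in sgNC tumors 1 to 3 and 0.430, 1.72, 25.8 and 1.25 CPM in tumors 4 to 7 (log2 fold change -5.77, adjusted p = 0.0154, -4.42 without sgNC tumor 2), with tumor 6 well above the other 3. Rab3b, a GTPase of secretory vesicles, held 13.8, 156 and 32.3 CPM in the controls and 0.788, 0.375, 1.04 and 0.249 CPM in tumors 4 to 7 (log2 fold change -6.73, adjusted p = 0.00195, -5.18 without sgNC tumor 2). Gm48275, a gene with no assigned function, held 136, 856 and 192 CPM in sgNC tumors 1 to 3 and 0, 13.5, 7.43 and 0 CPM in tumors 4 to 7 (log2 fold change -6.25, adjusted p = 0.00855, -4.97 without sgNC tumor 2). Leaving out a high tumor of the 4 moved values the other way, to -8.48 for Npy without tumor 6, and to -6.67 for Krt15 and -7.27 for Gm48275 without tumor 5.

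**Figure D3:**
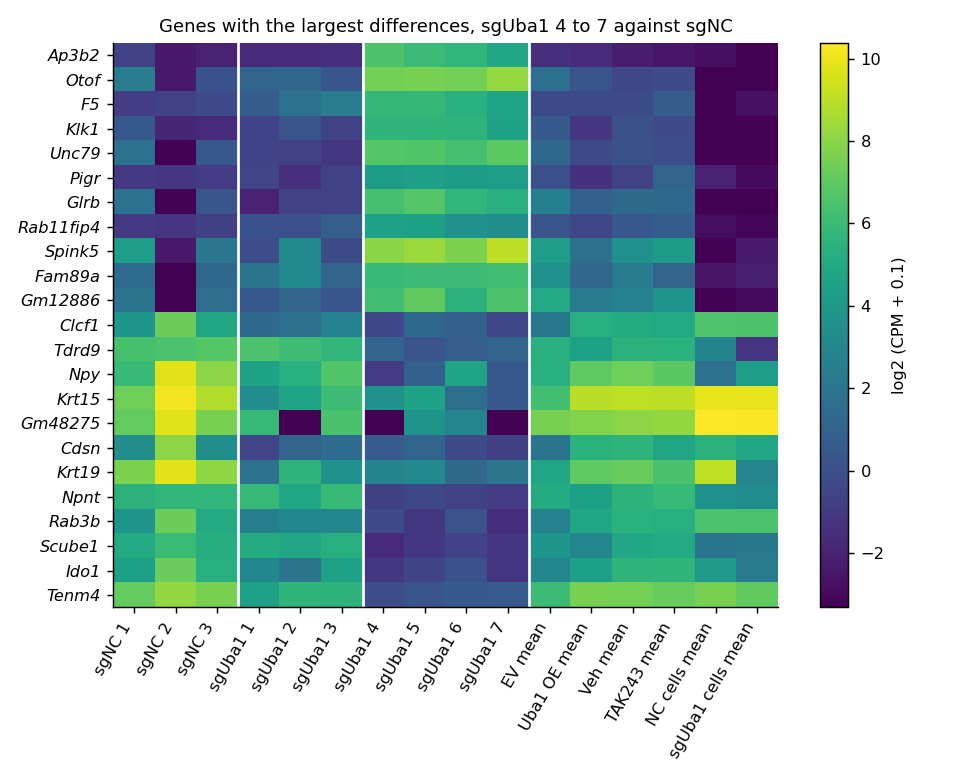
Heat map of log2(CPM + 0.1) for 11 of the 12 genes with the largest increases and the 12 with the largest decreases, as single tumors for sgNC and sgUba1 and as means for the other tumor groups and for cultured cells. For all 23 genes, lack of overlap between tumors 4 to 7 and the 3 sgNC tumors was a condition of the choice.

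The same genes were also read in 6 tumors outside the comparison, and as the values of tumors 4 to 7 that chose them are used again, this is a description and no separate test. All 12 genes with the largest increases were higher in each of tumors 4 to 7 than in all 6 sgUba1 1 to 3 and EV tumors, and 7 of the 12 with the largest decreases were lower than in all 6, beside 16.2% above and 12.8% below all 6 over all genes tested, which were not chosen in this way. Npnt, for instance, held 57, 26.6 and 60.2 CPM in sgUba1 tumors 1 to 3 and 33.1 to 37.8 CPM in EV tumors. Krt19 is among the 5 genes that were not lower than all 6: it held 3.54, 48.9 and 12.1 CPM in sgUba1 tumors 1 to 3, so that the ranges overlapped.

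Abundant genes changed as well, here chosen after their values were seen. Cdcp3, which encodes a protein with CUB domains, held 758, 62.5 and 289 CPM in sgNC tumors 1 to 3 and 9879, 14095, 10317 and 9523 CPM in tumors 4 to 7 (log2 fold change 4.86, SE 0.79, adjusted p = 0.00334). It held 3614 to 5616 CPM in EV tumors and 2.48 CPM in cultured control cells. Against EV tumors in place of sgNC tumors its log2 fold change was 1.30, and without sgNC tumor 1 it was 5.94. The lysosomal protease gene Ctsd held 707, 534 and 623 CPM in sgNC tumors 1 to 3 and 1712, 2002, 1880 and 1707 CPM in tumors 4 to 7 (log2 fold change 1.53, SE 0.12, adjusted p = 0.000244), and in the 24 other Myc-CaP tumors it held 356 to 984 CPM. Por, the electron donor of microsomal cytochrome P450 enzymes, held 295, 159 and 273 CPM in sgNC tumors 1 to 3 and 908, 1086, 793 and 912 CPM in tumors 4 to 7 (log2 fold change 1.91, SE 0.22, adjusted p = 0.000949). For all 3 genes tumors 4 to 7 were above every control and above every other Myc-CaP tumor.

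The 3 fibrinogen genes and Ptgds were also chosen after their values were seen. Fgb, the beta chain, held 230.1, 68.9 and 153 CPM in sgNC tumors 1 to 3 and 1784, 2696, 841 and 1225 CPM in tumors 4 to 7 (log2 fold change 3.41, SE 0.53, adjusted p = 0.00284), with 5.47 to 549 CPM in the 24 other tumors and 0 CPM in cultured control cells. Fga, the alpha chain, held 26.3, 0.619 and 5.95 CPM in sgNC tumors 1 to 3 and 63.9, 95.2, 73.8 and 76.8 CPM in tumors 4 to 7 (log2 fold change 2.78, adjusted p = 0.0339). Fgg, the gamma chain, held 133, 6.89 and 55.3 CPM in sgNC tumors 1 to 3 and 123, 231, 129 and 152 CPM in tumors 4 to 7 with overlapping groups (log2 fold change 1.25, adjusted p = 0.239), and without sgNC tumor 1 it was called (2.32, adjusted p = 0.0442). Ptgds, which makes prostaglandin D2, held 348, 12.1 and 111 CPM in sgNC tumors 1 to 3 and 872, 1209, 1417 and 1243 CPM in tumors 4 to 7 (log2 fold change 2.89, adjusted p = 0.0401). The calls of Fga and Ptgds were lost without sgNC tumor 3 (adjusted p = 0.108 and 0.123) and without any single one of tumors 4 to 7, and without sgNC tumor 1 their log2 fold changes were 4.48 and 4.25.

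Some abundant genes, also chosen after their values were seen, were lower. Fn1, fibronectin, held 3627, 7312 and 3703 CPM in sgNC tumors 1 to 3 and 1410, 1349, 1617 and 1423 CPM in tumors 4 to 7 (log2 fold change -1.77, SE 0.24, adjusted p = 0.00173), and Slco2a1, a prostaglandin transporter, 552, 798 and 521 CPM in sgNC tumors 1 to 3 and 182, 225, 192 and 141 CPM in tumors 4 to 7 (log2 fold change -1.78, SE 0.19, adjusted p = 0.000689). All 4 tumors were below every control for both. Itga3, the integrin chain that binds laminin, held 526, 2245 and 631 CPM in sgNC tumors 1 to 3 and 173, 198, 167 and 121 CPM in tumors 4 to 7 (log2 fold change -2.81, SE 0.48, adjusted p = 0.00416, -1.84 without sgNC tumor 2), and EV tumors held 199.6 to 309 CPM. Ahnak, a giant scaffold protein, held 5604, 19416 and 7792 CPM in sgNC tumors 1 to 3 and 3759, 4083, 3274 and 3479 CPM in tumors 4 to 7 (log2 fold change -1.61, adjusted p = 0.0143, -0.90 without sgNC tumor 2).

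A few genes were nearly absent from tumors 4 to 7 or nearly confined to them, again noticed after the values were seen. Genes with at most 3 counts over the 4 tumors and at least 1 CPM in each of the 24 other Myc-CaP tumors numbered 3: Afp, Gm49441 and Gm44507. Afp, the fetal serum protein, held 11.3, 8.39 and 12.3 CPM in sgNC tumors 1 to 3 and 0, 0, 0 and 0.0832 CPM in tumors 4 to 7. In the 24 other tumors Afp stood at 6.34 to 14.1 CPM, and it was read in all 16 cell libraries, at 13.1 CPM in cells with the nontargeting guide. Gm49441 was likewise at 4.92 to 10.5 CPM in the 24 other tumors. Of 2 other genes near 0 in tumors 4 to 7, the highest level was in sgNC tumor 3. Cck, cholecystokinin, held 28.2, 7.25 and 122 CPM in sgNC tumors 1 to 3 and 0, 0, 0 and 0 CPM in tumors 4 to 7, with 0.354, 2.24 and 13 CPM in sgUba1 tumors 1 to 3 and 0.301 to 4.5 CPM in EV tumors. Tex101, a germ cell surface protein, held 10.6, 11.9 and 30.8 CPM in sgNC tumors 1 to 3 and 0.0716, 0, 0 and 0 CPM in tumors 4 to 7, with 0.849, 0.771 and 1.46 CPM in sgUba1 tumors 1 to 3 and 1.44 to 1.77 CPM in EV tumors.

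Genes with at least 1 CPM in each of tumors 4 to 7 and under 0.5 CPM in every other Myc-CaP tumor numbered 16. Phactr3, a phosphatase and actin regulator, held 8.6, 6.45, 16.9 and 10.4 CPM in tumors 4, 5, 6 and 7. Tdrd12, a germline piRNA factor, held 7.16, 5.7, 4.23 and 4.57 CPM there, and Gm8300 held 9.6, 9.9, 5.54 and 3.83 CPM with 0 in all sgNC tumors. Of the 16, 5 lie near each other on chromosome 14, and whether they share reads was not tested.

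Tumors 4 to 7 were also compared with sgUba1 tumors 1 to 3, which share the label but had less Uba1 RNA. Of 15918 genes tested, 5971 differed (37.5%), with 3221 higher in tumors 4 to 7 (20.2%) and 2750 lower (17.3%). At least 2-fold changes numbered 764 higher and 846 lower, and the median of all genes was -0.02. Because Uba1 also chose the tumors here, and because both comparisons share tumors 4 to 7, their calls are not independent and are given side by side only. Leaving out single tumors gave between 4650 and 5848 calls. Which comparison had more calls depended on the fit: all 10 sgNC and sgUba1 tumors in 1 fit gave 5410 against sgNC and 4967 against sgUba1 1 to 3, and the fit of 17 tumors gave 5504 and 5083.

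The largest changes against sgUba1 tumors 1 to 3 were partly the genes named above. Ap3b2 rose by a log2 fold change of 7.95, adjusted p = 1.36e-05, Unc79 by 7.68, adjusted p = 5.44e-07 and Otof by 6.83, adjusted p = 2.29e-06. Npnt changed by -6.49, adjusted p = 3.97e-06, Scube1 by -6.47, adjusted p = 5.85e-07 and Tdrd9 by -5.36, adjusted p = 2.56e-06. Cym, the milk-clotting protease chymosin, held 0.354, 0.771 and 0.209 CPM in sgUba1 tumors 1 to 3 and 21.1, 24.6, 15.8 and 12.7 CPM in tumors 4 to 7 (5.34, adjusted p = 1.48e-05), and A4gnt, a glycosyltransferase of gastric mucin, 0.283, 0.350 and 0.139 CPM and 10.5, 11.5, 13.5 and 15.8 CPM (5.57, adjusted p = 3.97e-06). Cxcl17, a mucosal chemokine, held 0.212, 0.771 and 0.209 CPM and 11.1, 17.5, 7.56 and 10.8 CPM (4.83, adjusted p = 5.71e-05). Sds, a serine dehydratase, held 14.3, 9.52, 11.9 and 7.32 CPM in tumors 4 to 7 and 0.424, 0.280 and 0.0696 CPM in sgUba1 tumors 1 to 3. Without sgUba1 tumor 2 the log2 fold changes of Cym and Cxcl17 were 5.97 and 5.71.

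Genes lower than in sgUba1 tumors 1 to 3 included Igfbp5, which the controls held at intermediate levels. This gene, a binding protein of insulin-like growth factors, held 4188, 2098 and 2724 CPM in sgUba1 tumors 1 to 3, 965, 1569 and 398 CPM in sgNC tumors and 39.8, 90, 65.5 and 34.1 CPM in tumors 4 to 7. Its log2 fold change was -5.73, adjusted p = 8.71e-06 against sgUba1 1 to 3 and -4.12, adjusted p = 0.00113 against sgNC. H19, an imprinted noncoding RNA, held 323, 156 and 112 CPM in sgUba1 tumors 1 to 3 and 6.59, 2.77, 21.4 and 6.15 CPM in tumors 4 to 7 (-4.41, adjusted p = 0.00036). Saa4, a serum amyloid A protein, held 47.2, 30.6 and 49 CPM and 1.43, 1.42, 0.521 and 1.75 CPM (-5.08, adjusted p = 5.43e-06), while the value against sgNC was -1.05, adjusted p = 0.146. For each of these genes, a level in tumors 4 to 7 below all 3 sgUba1 tumors 1 to 3 was a condition of the choice. Lower too were Cyp2c70, a bile acid hydroxylase (-5.40, adjusted p = 8.05e-06), Ackr4, a scavenger receptor for chemokines (-5.09, adjusted p = 2.81e-05), Slc38a5, a glutamine transporter (-5.05, adjusted p = 0.00016), Sult1e1, the estrogen sulfotransferase (-4.64, adjusted p = 8.47e-05), and Anxa8, an annexin (-4.27, adjusted p = 1.83e-05). Without tumor 6, H19 was at -5.28 and Slc38a5 at -6.04, and without sgUba1 tumor 1, Slc38a5 was at -4.36.

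Most antiviral interferon-stimulated genes were called higher in tumors 4 to 7 than in the controls, and a minority were called higher than in sgUba1 tumors 1 to 3. Of 74 list members tested, 47 were called higher and 1 lower than in sgNC tumors, with a median log2 fold change of 0.86, against 15.9% and 14.3% of all genes and a median of -0.02. In the comparison with sgUba1 tumors 1 to 3, 31 were higher and 1 lower, with a median of 0.50, against 20.2% and 17.3% of all genes. Here 4 were lower without sgUba1 tumor 2 and 2 without sgUba1 tumor 1, 3 or 4. Leaving out single tumors gave 25 to 45 higher in this comparison. The fit of 17 tumors gave 15 higher, beside 2589 of 16501 genes in that fit. Summed over the list, the level was 2026, 2068, 2163 and 2243 CPM in tumors 4, 5, 6 and 7, and 1469, 1218 and 1216 CPM in sgNC tumors 1, 2 and 3. The mean log2 CPM of the list ran from 3.86 to 4.01 in tumors 4 to 7, from 2.81 to 3.16 in sgNC, from 3.06 to 3.73 in sgUba1 tumors 1 to 3 and from 2.95 to 3.27 in EV tumors. Tumors 4 to 7 were thus above every tumor of those 3 groups. In cultured cells with the nontargeting guide, 33 of 78 members reached 1 CPM.

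Single members varied little among the 4 tumors. Irf7, the factor that amplifies type I interferon, held 10.1, 7.51 and 7.03 CPM in sgNC tumors 1 to 3 and 23.7, 22.9, 25.2 and 27.7 CPM in tumors 4 to 7 (log2 fold change 1.58, SE 0.16, adjusted p = 0.000598). Oas2, a sensor of double-stranded RNA that activates RNase L, held 10.7, 10.8 and 8.32 CPM in sgNC tumors 1 to 3 and 25.6, 24.2, 28.7 and 28.9 CPM in tumors 4 to 7 (log2 fold change 1.42, SE 0.14, adjusted p = 0.000545), and its relative Oas3 held 6.96, 6.27 and 4.88 CPM in sgNC tumors 1 to 3 and 16.3, 16, 19.4 and 20.5 CPM in tumors 4 to 7 (log2 fold change 1.56, adjusted p = 0.000851). Ddx58, which encodes the RNA sensor RIG-I, held 17.8, 25.5 and 20.8 CPM in sgNC tumors 1 to 3 and 46.1, 46, 49.4 and 50.8 CPM in tumors 4 to 7 (log2 fold change 1.15, adjusted p = 0.000926), and Eif2ak2, the kinase PKR, 39.7, 44.5 and 37.5 CPM in sgNC tumors 1 to 3 and 85.7, 73.9, 78.6 and 81.3 CPM in tumors 4 to 7 (log2 fold change 0.96, adjusted p = 0.000634). In all of these genes every one of tumors 4 to 7 exceeded every control. Ifi35, a cytosolic interferon-induced protein, held 14.6, 16.2 and 12.9 CPM in sgNC tumors 1 to 3 and 36.5, 39.4, 35.2 and 31.8 CPM in tumors 4 to 7 (log2 fold change 1.27, adjusted p = 0.000474). Ifitm2, the most abundant member and a block to viral entry, held 139, 63.8 and 103 CPM in sgNC tumors 1 to 3 and 202, 206, 194 and 191 CPM in tumors 4 to 7 (log2 fold change 0.93, adjusted p = 0.0169), and its call was lost without sgNC tumor 3.

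Isg15 and the genes of enzymes that act on its product were called in both directions. Isg15, a ubiquitin-like protein, held 8.7, 9.37 and 7.1 CPM in sgNC tumors 1 to 3 and 12.5, 12.4, 14.3 and 12.1 CPM in tumors 4 to 7 (log2 fold change 0.59, adjusted p = 0.0159), with the call lost without sgNC tumor 3 (adjusted p = 0.0521). Usp18, which removes ISG15 from proteins, rose by a log2 fold change of 2.04, adjusted p = 0.00169. Ube2l6, the E2 enzyme for ISG15, was the single member called lower (-0.49, adjusted p = 0.0355), and 0 were lower without sgNC tumor 1 or 3 or sgUba1 tumor 4, 5 or 6. Oasl2 (1.37, adjusted p = 0.000616), the RNA sensor gene Zbp1 (1.70, adjusted p = 0.00346) and Apol9b (2.18, adjusted p = 0.00488) were higher, though Apol9b has a close copy and reads may be split between them. Counts of the list moved with the controls used. Without sgNC tumor 2, 53 members were higher, beside 2784 of 16142 genes in that fit. Without sgNC tumor 3, 33 were higher, beside 1779 of 16163 genes. With EV tumors in place of sgNC tumors, 50 were higher, beside 2839 of 15383 genes. With all 7 tumors labelled sgUba1 in 1 group, 1 was called higher, beside 186 of 16201 genes. In a fit of 17 tumors, added after the data were seen, 15 members were higher than in sgUba1 tumors 1 to 3.

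Promoters of these genes were searched for the interferon-stimulated response element, here GAAA, any 2 bases and GAAA again, read on both strands from 250 bases before to 50 bases after each gene start. It was present in 26 of 59 promoters of tested list members (44.1%) and in 20 of 39 of those called higher (51.3%), against 3.49% of 27025 promoters. Among all genes called higher it was in 83 of 1957 (4.24%), and among all tested in 372 of 11601 (3.21%). The 3 promoters shown belong to the list members with the smallest adjusted p that hold the element, which is in capitals. They are RefSeq sequences on GRCm38.p6, all from the minus strand of their chromosome, at chr17:78882523-78882822 (Eif2ak2), chr5:120777610-120777909 (Oas3) and chr4:40239776-40240075 (Ddx58). A match describes the letters only. The gamma-activated element, TTCNNNGAA, was in 5 of 39 promoters of list members called higher (12.8%) and in 8.47% of all promoters.
Eif2ak2: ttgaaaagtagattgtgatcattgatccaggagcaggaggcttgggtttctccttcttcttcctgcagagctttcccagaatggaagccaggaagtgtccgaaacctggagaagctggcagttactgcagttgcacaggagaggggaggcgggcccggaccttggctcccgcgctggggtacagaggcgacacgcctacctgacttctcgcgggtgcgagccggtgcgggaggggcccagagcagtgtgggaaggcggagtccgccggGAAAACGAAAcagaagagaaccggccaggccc
Oas3: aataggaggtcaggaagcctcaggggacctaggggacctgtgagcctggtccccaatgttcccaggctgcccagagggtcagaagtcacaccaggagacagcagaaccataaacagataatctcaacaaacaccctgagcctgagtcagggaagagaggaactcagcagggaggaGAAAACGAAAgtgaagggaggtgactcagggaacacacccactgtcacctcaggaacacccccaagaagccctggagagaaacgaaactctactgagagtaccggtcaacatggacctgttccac
Ddx58: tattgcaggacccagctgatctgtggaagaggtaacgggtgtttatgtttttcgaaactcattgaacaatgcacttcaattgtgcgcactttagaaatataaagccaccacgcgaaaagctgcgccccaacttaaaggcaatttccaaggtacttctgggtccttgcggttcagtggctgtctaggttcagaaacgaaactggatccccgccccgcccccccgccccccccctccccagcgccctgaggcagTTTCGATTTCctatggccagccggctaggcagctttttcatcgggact

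Interferon-gamma genes were called in both directions. Of 42 tested, 10 were called higher and 4 lower than in sgNC tumors (median 0.48), beside 15.9% and 14.3% of all genes. Against sgUba1 tumors 1 to 3, 2 were higher and 9 lower (median -0.70), beside 20.2% and 17.3% of all genes. With EV tumors in place of sgNC tumors, 5 were higher. Those lower than in sgNC numbered 2 without sgNC tumor 2 or sgUba1 tumor 4, 5 or 6, and those lower than in sgUba1 tumors 1 to 3 numbered 27 without sgUba1 tumor 2. Tgtp1, a GTPase against intracellular parasites with a near-identical copy, held 7.18, 5.66 and 7.1 CPM in sgNC tumors 1 to 3 and 48.1, 71.8, 30.4 and 27.5 CPM in tumors 4 to 7 (log2 fold change 2.71, SE 0.35, adjusted p = 0.00147), and the value against sgUba1 1 to 3 was 1.03, adjusted p = 0.171. Serping1, the C1 inhibitor of complement, held 135, 77.1 and 139 CPM in sgNC tumors 1 to 3 and 20.6, 25.3, 27 and 26.4 CPM in tumors 4 to 7 (log2 fold change -2.26, adjusted p = 0.000429) and was lower in all 4 tumors. Cd274, which encodes PD-L1, held 6.35, 4.42 and 4.09 CPM in sgNC tumors 1 to 3 and 9.17, 10.2, 9.51 and 9.81 CPM in tumors 4 to 7 (log2 fold change 0.94, adjusted p = 0.00678), and -0.23, adjusted p = 0.516 against sgUba1 1 to 3. Sod2, the mitochondrial superoxide dismutase, was the most abundant member and rose by 0.76, adjusted p = 0.0019. The chemokine genes Cxcl9 (0.28, adjusted p = 0.614) and Cxcl10 (0.80, adjusted p = 0.084) and the factor Irf1 (0.10, adjusted p = 0.809) were not called. With EV tumors as controls Cxcl9 was at -1.03 (adjusted p = 0.0914) and Cxcl10 at -0.37 (adjusted p = 0.396). Against sgUba1 tumors 1 to 3 they were at -1.38 and -0.47. Without sgUba1 tumor 2 both were called lower there (-1.915, adjusted p = 0.00187, and -0.97, adjusted p = 0.0303). Ifng, interferon-gamma itself, had no counts in 9 of the 10 sgNC and sgUba1 tumors and 1 count in sgNC tumor 1.

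Antigen presentation genes were read in part, as 17 of 32 listed MHC class I genes and 4 of 14 class II genes were analysed here, and the counts do not cover the rest. In the MHC class I list 7 of 17 were called, all higher than in sgNC tumors (median 0.36), beside 15.9% of all genes. Of the 17, 4 were called higher than in sgUba1 tumors 1 to 3 (median 0.10), beside 20.2% of all genes, or 2 without sgUba1 tumor 1. In that comparison 0 were lower with all tumors and 4 without sgUba1 tumor 2. Nlrc5, the activator of MHC class I transcription, held 7.71, 3.0 and 8.25 CPM in sgNC tumors 1 to 3 and 24.4, 30.1, 29.9 and 24.1 CPM in tumors 4 to 7 (log2 fold change 2.06, adjusted p = 0.00227), and the value against sgUba1 tumors 1 to 3 was 0.02, adjusted p = 0.981. The class I genes H2-Q5 (0.82, adjusted p = 0.00423) and H2-K2 (0.72, adjusted p = 0.00532) and the proteasome activator Psme2 (0.44, adjusted p = 0.00462) were higher, with H2 genes nearly alike in sequence. B2m, the shared light chain, held 1026, 464 and 1119 CPM in sgNC tumors 1 to 3 and 874, 1088, 948 and 1024 CPM in tumors 4 to 7 with overlapping groups (log2 fold change 0.15, adjusted p = 0.704), and Calr, a chaperone of class I loading, was the most abundant member. The MHC class II list had 2 of 4 members higher than in sgNC tumors (median 1.0), beside 15.9% of all genes, and 0 higher with EV tumors as controls. Of the 4, 1 was lower than in sgUba1 tumors 1 to 3 (median -1.01), beside 17.3% of all genes, or 3 without sgUba1 tumor 2 and 0 without any single other tumor but sgUba1 tumor 5. Ctss, the protease that trims the class II invariant chain, rose by 1.09, adjusted p = 0.00855, and Cd74, that chain, gave 0.92, adjusted p = 0.0981, but was called without sgNC tumor 1 (adjusted p = 0.0174). With EV tumors as controls Ctss was at 0.19 (adjusted p = 0.489) and Cd74 at -0.63 (adjusted p = 0.14). Against sgUba1 tumors 1 to 3 Cd74 was at -1.265, and at -1.66 without sgUba1 tumor 2 (adjusted p = 0.00405).

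Of 16 tested genes of interferon receptors and JAK-STAT signaling 4 were called, all higher than in sgNC tumors (median 0.06), or 2 without sgNC tumor 3, beside 15.9% of all genes. Over sgUba1 tumors 1 to 3 the counts were 4 higher and 1 lower (median -0.12), beside 20.2% and 17.3% of all genes. Lower genes there numbered 4 without sgUba1 tumor 2 and 2 without tumor 6. Genes called against sgNC included Stat3 (0.59, adjusted p = 0.0104) and the phosphatase genes Ptpn1 (0.68, adjusted p = 0.0169) and Ptpn6 (0.60, adjusted p = 0.0164), of which Ptpn6 lost the call without sgNC tumor 3. Jak1, the kinase of the interferon receptors, gave a log2 value of -0.07, adjusted p = 0.651, and Ifngr1, a receptor chain for interferon-gamma, -0.27, adjusted p = 0.276. Jak2 held 86.3, 113 and 90.2 CPM in sgNC tumors 1 to 3 and 114, 122, 114 and 104 CPM in tumors 4 to 7 (log2 fold change 0.21, adjusted p = 0.174), and against sgUba1 tumors 1 to 3 it was higher (0.80, adjusted p = 5.92e-05). Irf9, the DNA-binding part of the type I complex, gave 0.56, adjusted p = 0.0504 and 0.47, adjusted p = 0.0108 in the 2 comparisons. Leaving out sgNC tumor 1 brought Irf9 (adjusted p = 0.0222) and Ifngr1 (-0.45, adjusted p = 0.0385) past the threshold, and leaving out sgNC tumor 2 brought Jak2 past it (adjusted p = 0.0143). Among 15 tested genes that the study names, 3 were higher and 1 lower than in sgNC tumors (median 0.10), beside 15.9% and 14.3% of all genes. Without sgNC tumor 1 or 2 there were 2 lower. Against sgUba1 1 to 3 the counts were also 3 and 1 (median -0.19), beside 20.2% and 17.3% of all genes, with 4 lower without sgUba1 tumor 2 and 0 without tumor 5 or 7. Stub1, a ubiquitin ligase gene among them, gave -0.16, adjusted p = 0.19 against sgNC.

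**Figure D4:**
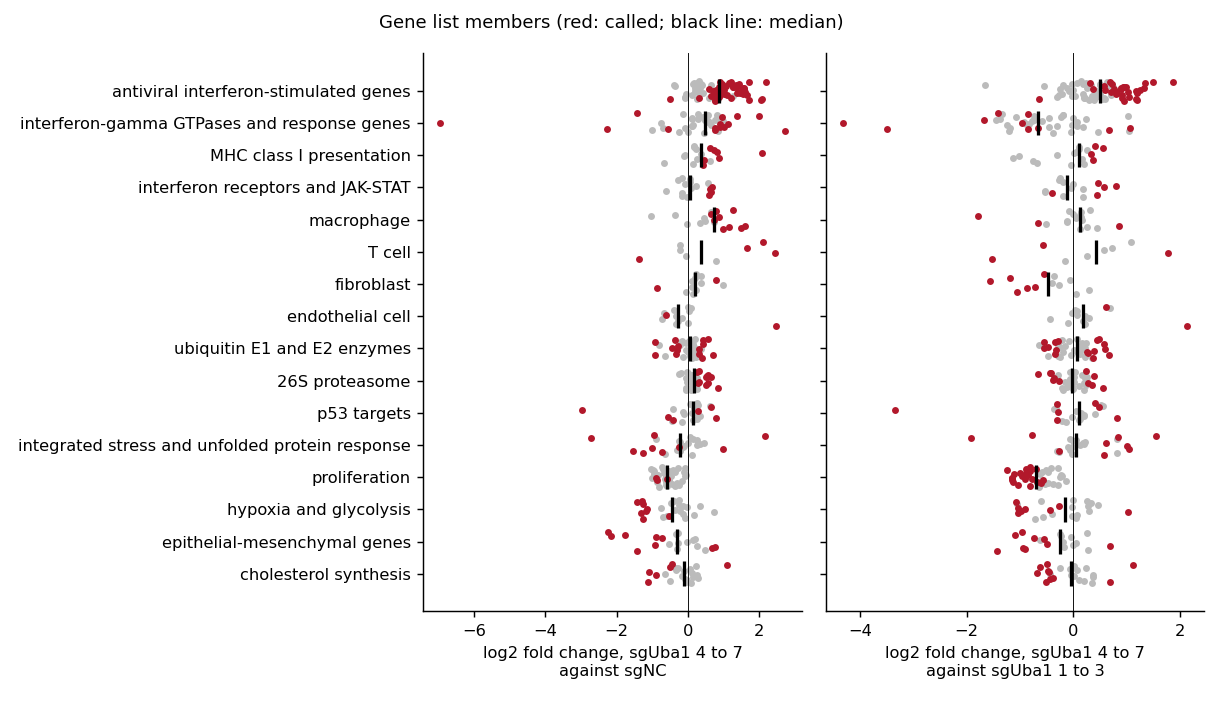
Log2 fold change of each tested member (points; red where called at an adjusted p under 0.05) with the median (black line) for 16 gene lists, in tumors 4 to 7 against sgNC tumors and against sgUba1 tumors 1 to 3. The antiviral list had 47 and 31 of 74 members called higher, beside 15.9% and 20.2% of all genes.

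Of 17 macrophage markers tested 9 were called, all higher than in sgNC tumors (median 0.73), and 15 without sgNC tumor 2, beside 15.9% of all genes. Adgre1, which encodes the marker F4/80, held 7.56, 11.7 and 9.54 CPM in sgNC tumors 1 to 3 and 23.3, 21.7, 22 and 26.6 CPM in tumors 4 to 7 (log2 fold change 1.27, adjusted p = 0.00152), and Ms4a7, a macrophage membrane protein, 6.88, 7.95 and 5.38 CPM in sgNC tumors 1 to 3 and 18.3, 19.3, 19.2 and 26.4 CPM in tumors 4 to 7 (log2 fold change 1.60, adjusted p = 0.00119). Ptprc, the leukocyte marker CD45, held 10.6, 14.4 and 11.6 CPM in sgNC tumors 1 to 3 and 26, 31, 25.8 and 27.8 CPM in tumors 4 to 7 (log2 fold change 1.16, adjusted p = 0.000998). Cultured control cells held 0 CPM of Adgre1 and Ptprc, and tumors 4 to 7 were above every control for all 3 genes. C1qa, a complement chain made by macrophages, rose by 0.77, adjusted p = 0.00477, while Lyz2, lysozyme and the most abundant member, gave 0.73, adjusted p = 0.115, or 1.05 without sgNC tumor 2 (adjusted p = 0.0238). Summed over the list the levels were 551, 556, 549 and 723 CPM in tumors 4 to 7 and 274, 544 and 320 CPM in sgNC tumors 1 to 3. Against sgUba1 tumors 1 to 3, 1 member was higher and 2 lower (median 0.12), beside 20.2% and 17.3% of all genes. The higher numbered 3 without sgUba1 tumor 3. In bulk tumors more cells of a type and more RNA per cell cannot be told apart, and how far these cells bear on the interferon genes was not tested.

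T cell markers were low in sgNC and sgUba1 tumors, with 15 of 18 listed genes analysed here. Of 8 tested, 3 were called higher and 1 lower than in sgNC tumors (median 0.37), beside 15.9% and 14.3% of all genes, and 1 higher and 2 lower than in sgUba1 tumors 1 to 3 (median 0.42), beside 20.2% and 17.3% of all genes, where leaving out single tumors gave 0 to 5 lower, the extremes without sgUba1 tumors 3 and 2. Summed, they held 26.4, 35.1, 33.3 and 31.6 CPM in tumors 4 to 7 and 17.3, 16.9 and 16.3 CPM in sgNC tumors. EV tumors held 29.26, 23.15 and 27.6 CPM, so that they overlapped tumors 4 to 7. Cd8a, a coreceptor of killer T cells, held 3.02, 2.3 and 2.72 CPM in sgNC tumors 1 to 3 and 11.3, 15.8, 18.8 and 13.8 CPM in tumors 4 to 7 (log2 fold change 2.44, SE 0.21, adjusted p = 0.000358) and made up much of the sum. The T cell receptor subunit Cd3e, however, held 0.378, 0 and 0 CPM in sgNC tumors 1 to 3 and 0.645, 0.450, 0.195 and 0.333 CPM in tumors 4 to 7, and cultured control cells already held 2.26 CPM of Cd8a. Cd4 (1.65, adjusted p = 0.00663) and Cd28 (2.12, adjusted p = 0.0233) were also called higher, and Foxp3, the factor of regulatory T cells, lower (-1.39, adjusted p = 0.0286). With EV tumors in place of sgNC tumors 1 list member was called higher and 0 lower. Cd8a was then at 0.59 (adjusted p = 0.0438), Cd4 at 0.59 (adjusted p = 0.18) and Cd28 at 1.29 (adjusted p = 0.0652). Cd28 was not called without sgNC tumor 1 (adjusted p = 0.0659) and fell under the filter without sgUba1 tumor 4, 5 or 6. Foxp3 was not called without sgNC tumor 2 or 3 or sgUba1 tumor 4, 6 or 7. Gzmb, a killer cell protease, stayed under 1 CPM.

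Other leukocyte lists gave no calls against sgNC tumors with all 7 tumors by edgeR, DESeq2 or limma-voom, nor at an unadjusted p under 0.05. They were NK and cytotoxic (1 tested, log2 fold change 0.51), neutrophil (3 tested, median -0.17) and dendritic cell genes (5 tested, median 0.45). Without sgNC tumor 2, 1 neutrophil gene, Csf3r (0.85, adjusted p = 0.0195), and 1 dendritic cell gene were called higher. No B and plasma cell gene was tested, as the 7 of 9 listed genes analysed here fell under the filter on low counts. Skin keratinocyte (1 tested, -1.18), adipocyte (7 tested, median -0.64) and Schwann cell genes (3 tested, median -0.07) gave no calls either, though without sgNC tumor 1 an adipocyte and a Schwann cell gene were called lower. For skeletal muscle genes (7 tested, median 0.67) edgeR called 0, DESeq2 2 and voom 1, with 3 at an unadjusted p under 0.05, and edgeR called 2 higher without sgNC tumor 1 and 1 without sgNC tumor 2 or sgUba1 tumor 7. For red blood cell genes (5 tested, median -1.31) the counts were 0, 2 and 0, again with 3, but 4 were called lower without sgNC tumor 1. In sum they held 122.6, 850.2 and 454.9 CPM in sgNC tumors 1 to 3 and 154, 135, 195 and 307 CPM in tumors 4 to 7.

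Among stromal lists, fibroblast genes had 1 of 12 members higher and 1 lower than in sgNC tumors (median 0.20), beside 15.9% and 14.3% of all genes: Col6a1 (0.78, adjusted p = 0.0254) and Pdgfra (-0.86, adjusted p = 0.00507), and 6 of 12 were lower than in sgUba1 tumors 1 to 3 (median -0.47), beside 17.3% of all genes, with 2 or 3 when sgUba1 tumor 3, 4, 5 or 6 was left out. Without sgNC tumor 2, 4 fibroblast genes were higher than in the controls. Endothelial genes had 1 of 13 higher and 1 lower (median -0.28), beside the same shares as for fibroblast genes. The higher was Vwf, von Willebrand factor, which held 29.6, 6.72 and 19.2 CPM in sgNC tumors 1 to 3 and 80.2, 97.1, 97.5 and 141 CPM in tumors 4 to 7 (log2 fold change 2.46, SE 0.44, adjusted p = 0.005), with every one of the 4 tumors above every control, and the lower was Flt1, a receptor for VEGF (-0.61, adjusted p = 0.0245). Of 8 pericyte and smooth muscle genes 1 was called, Myh11, smooth muscle myosin, which was lower (-0.68, adjusted p = 0.0305, median of the list 0.03), again beside 14.3% of all genes, and 1 was called higher without sgNC tumor 1. Against sgUba1 tumors 1 to 3, 2 of 13 endothelial genes were higher (median 0.18), beside 20.2% of all genes. Of these single calls, Col6a1 was lost without sgNC tumor 3 or sgUba1 tumor 5 or 6, Flt1 without sgNC tumor 1 or sgUba1 tumor 4, 6 or 7, and Myh11 without sgNC tumor 2 or 3 or sgUba1 tumor 4, 5 or 6.

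Prostate genes were called in both directions. In the luminal list 2 of 8 tested were higher and 2 lower than in sgNC tumors (median -0.31), beside 15.9% and 14.3% of all genes, and 1 of 9 higher and 3 lower than in sgUba1 tumors 1 to 3 (median -0.54), beside 20.2% and 17.3% of all genes. Without sgNC tumor 3, 1 was higher and 1 lower than in sgNC tumors, and 1 was lower without sgUba1 tumor 4 or 6. Cldn3, a tight junction protein, rose (1.06, adjusted p = 0.0086). Foxa1, a pioneer factor, was lower (-0.62, adjusted p = 0.0409) but not without sgNC tumor 2 or 3 or sgUba1 tumor 4, 6 or 7, and Hoxb13, a prostate homeobox gene, gave 0.00, adjusted p = 0.994. Myc gave 0.01, adjusted p = 0.992 against sgNC tumors, -0.40 without sgNC tumor 2 (adjusted p = 0.017) and -0.50 against EV tumors. Of 3 basal genes tested 2 were lower (median -1.07, beside 14.3% of all genes), Krt15 and Trp63 (-1.07, adjusted p = 0.00672). Their summed list level was 110, 113, 94.7 and 101 CPM in tumors 4 to 7 and 269.7, 1217 and 545 CPM in sgNC tumors, and Krt5, Krt14 and Krt15 are also genes of skin. Against EV tumors Trp63 was higher in tumors 4 to 7 (0.77). The neuroendocrine list had 1 tested gene, Ncam1, an adhesion molecule, which was lower (-0.67, adjusted p = 0.00846).

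Androgen response genes gave 4 of 14 higher and 2 lower than in sgNC tumors (median -0.09), beside 15.9% and 14.3% of all genes, or 4 lower without sgNC tumor 2, and 3 and 3 against sgUba1 tumors 1 to 3 (median 0.08), beside 20.2% and 17.3% of all genes. Msmb, a protein of seminal plasma, rose by 2.93, adjusted p = 0.00486, Nedd4l, a ubiquitin ligase, by 2.34, adjusted p = 0.0143, Slc45a3, known as prostein, by 1.83, adjusted p = 0.00969, and Tsc22d3, a glucocorticoid-induced factor, by 0.93, adjusted p = 0.00652. Acpp, prostatic acid phosphatase, held 23.4, 11.6 and 38.8 CPM in sgNC tumors 1 to 3 and 0.0716, 0, 0.261 and 0.333 CPM in tumors 4 to 7 and fell in all 4 tumors to a few counts (log2 fold change -7.17, adjusted p = 0.000373). Steap4, a metalloreductase, was lower (-1.67, adjusted p = 0.0019). Fkbp5, a chaperone of steroid receptors and the most abundant member, gave 0.52, adjusted p = 0.0729, and 0.75 without sgNC tumor 1 (adjusted p = 0.0113).

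Of 40 E1 and E2 genes tested, with Uba1 itself left out, 7 were higher and 7 lower than in sgNC tumors (median 0.07), shares close to the 15.9% and 14.3% of all genes, and 9 and 7 against sgUba1 tumors 1 to 3 (median 0.06), beside 20.2% and 17.3% of all genes. Uba3, the catalytic subunit of the E1 enzyme for NEDD8, held 75, 81 and 74.6 CPM in sgNC tumors 1 to 3 and 39.9, 40.1, 43.3 and 40.9 CPM in tumors 4 to 7 (log2 fold change -0.93, SE 0.08, adjusted p = 0.000294) and was lower in all 4 tumors by more than the spread of either group. Its change against sgUba1 tumors 1 to 3 was -0.54, adjusted p = 0.00197. The E2 gene Ube2r2 (0.71, adjusted p = 0.00186) and Birc6, a giant E2 and E3 enzyme that blocks apoptosis (0.55, adjusted p = 0.00718), were higher. The count of higher genes was 3 without sgNC tumor 3 or sgUba1 tumor 6 and 4 without sgUba1 tumor 7, and that of lower genes 2 without sgUba1 tumor 4 and 4 without sgNC tumor 3 or sgUba1 tumor 5.

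Genes of ubiquitin and the proteasome were read next. Ubb, a ubiquitin gene, gave 0.34, adjusted p = 0.0232, but was not called without sgNC tumor 3 or sgUba1 tumor 4, 5 or 7. The fusion gene Rps27a (0.32, adjusted p = 0.0525) was not called, though it passed without sgNC tumor 1 (adjusted p = 0.0393). For the 26S proteasome 11 of 32 were called, all higher than in sgNC tumors (median 0.16), beside 15.9% of all genes. The count was 5 or 6 without any single one of tumors 4 to 7, 7 without sgNC tumor 1, 9 beside 2 lower without sgNC tumor 2, 6 by limma on log2(TPM + 1), and 6 higher with 5 lower against EV tumors. Psmd3, a lid subunit, held 98.8, 78.5 and 103 CPM in sgNC tumors 1 to 3 and 176, 192, 167 and 148 CPM in tumors 4 to 7 (log2 fold change 0.85, SE 0.12, adjusted p = 0.00222). Psmc5, an ATPase of the base (0.57, adjusted p = 0.00345), Psmd12 of the lid (0.49, adjusted p = 0.00508) and Psmb1 of the core (0.53, adjusted p = 0.00866) were also higher. In the comparison with sgUba1 1 to 3, 5 were higher and 6 lower (median -0.02), beside 20.2% and 17.3% of all genes, or 3 higher without sgUba1 tumor 1, 3 or 6.

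Stress and p53 genes were called in both directions. In the integrated stress and unfolded protein list 2 of 25 were higher (1 without tumor 4 or 5) and 7 lower (median -0.22), and 6 and 3 against sgUba1 tumors 1 to 3 (median 0.05). In this and the next 2 lists the shares of all genes are 15.9% and 14.3% against sgNC and 20.2% and 17.3% against sgUba1 1 to 3. Atf3, a stress factor, held 21.5, 10.6 and 16.4 CPM in sgNC tumors 1 to 3 and 64.8, 88.6, 56 and 83.4 CPM in tumors 4 to 7 (log2 fold change 2.15, adjusted p = 0.00114), while Atf5, a factor of the same family, held 76.3, 162 and 61.2 CPM in sgNC tumors 1 to 3 and 13.2, 16.4, 17.2 and 14.8 CPM in tumors 4 to 7 (log2 fold change -2.72, adjusted p = 0.000944), each with no overlap. Asns, asparagine synthetase (-0.96, adjusted p = 0.000524), and Slc7a11, the cystine transporter (-1.55, adjusted p = 0.000762), were lower. Of 21 p53 targets 3 were higher and 3 lower (median 0.15), and 3 and 4 against sgUba1 tumors 1 to 3 (median 0.10), where 1 was lower without tumor 5 and 2 without tumor 7 or sgUba1 tumor 2. Rrm2b, a ribonucleotide reductase subunit (0.78, adjusted p = 0.00159), and Ccng1, cyclin G1 (0.63, adjusted p = 0.00403), were higher, and Eda2r, a death receptor (-2.98, adjusted p = 0.000837), and Trp53 itself (-0.41, adjusted p = 0.0157) lower. The oxidative stress list of NRF2 had 5 of 22 higher and 6 lower (median -0.07), and 5 and 5 against sgUba1 tumors 1 to 3 (median -0.06), with as few as 3 higher without sgUba1 tumor 1 or 3 and 2 or 3 lower without sgUba1 tumor 1, 2, 6 or 7. Srxn1, which repairs peroxiredoxins, was higher (0.92, adjusted p = 0.000819) and Gstm1, a glutathione transferase with close copies, lower (-2.11, adjusted p = 0.00257).

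Proliferation genes were lower mainly when sgNC tumor 2 was set aside. Of 40 tested, 3 were called lower and 0 higher than in sgNC tumors (median -0.58), beside 14.3% and 15.9% of all genes. At an unadjusted p under 0.05, 15 were lower and 0 higher, and DESeq2 called 11 lower and voom 2. Without sgNC tumor 2, 25 were lower, against EV tumors 26, and against sgUba1 tumors 1 to 3, 23 (median -0.70, beside 17.3% of all genes), while without sgNC tumor 1 or 3 or sgUba1 tumor 5 or 6 the count was 0, and without sgUba1 tumor 4 or 7 it was 1. The 23 became 15 without sgUba1 tumor 6 and 14 without sgUba1 tumor 2. Mcm2, a subunit of the replicative helicase, held 82.3, 48.3 and 99.7 CPM in sgNC tumors 1 to 3 and 44, 27.4, 44.8 and 51.3 CPM in tumors 4 to 7 (log2 fold change -0.90, adjusted p = 0.0406), and Mki67, which encodes Ki-67, 574, 233 and 622 CPM in sgNC tumors 1 to 3 and 427, 188, 287 and 422 CPM in tumors 4 to 7 (log2 fold change -0.54, adjusted p = 0.325). Tumor 5 was the lowest of the 4 for both, and sgNC tumor 2 the lowest control, so that the groups overlapped for both. The call of Mcm2 was lost without any single tumor but sgNC tumor 2, and without that tumor Mki67 was called (adjusted p = 0.0447). Summed over the list the levels were 2704, 1313, 1951 and 2500.0 CPM in tumors 4 to 7 and 3569, 1684 and 3901 CPM in sgNC tumors.

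Of 24 hypoxia and glycolysis genes 8 were called, all lower than in sgNC tumors (median -0.44), beside 14.3% of all genes, with 17 lower without sgNC tumor 2 and against EV tumors, and 1 higher without sgNC tumor 1. Against sgUba1 tumors 1 to 3, 1 was higher and 7 lower (median -0.15), beside 20.2% and 17.3% of all genes. The higher numbered 2 without sgUba1 tumor 2 or 7. Pdk1, which limits pyruvate entry to mitochondria (-1.30, adjusted p = 0.00323), P4ha1, a collagen prolyl hydroxylase (-1.18, adjusted p = 0.00529), Kdm3a, a histone demethylase (-1.14, adjusted p = 0.00254), and Pgam1, a glycolytic mutase (-0.54, adjusted p = 0.00326), were lower. Gapdh was the most abundant member. Genes of cholesterol synthesis gave 1 of 23 higher and 5 lower (median -0.11), beside 15.9% and 14.3% of all genes, and 2 and 8 against sgUba1 tumors 1 to 3 (median -0.06), beside 20.2% and 17.3% of all genes, with 15 lower against EV tumors. Those lower than in sgNC numbered 8 without sgNC tumor 1, 2 without sgNC tumor 3 and 3 without sgUba1 tumor 4, 5 or 6, and against sgUba1 tumors 1 to 3 there were 4 higher without tumor 7 and 5 lower without sgUba1 tumor 3. Without sgNC tumor 3 or any single one of tumors 4 to 7, 0 were higher than in sgNC. Idi1 (-1.08, adjusted p = 0.00291), an isomerase of the pathway, and Stard4, a sterol carrier (-1.11, adjusted p = 0.00527), were lower.

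Early response and mesenchymal genes were also called in both directions. The TNF and NF-kB list had 8 of 34 higher and 8 lower than in sgNC tumors (median 0.15), beside 15.9% and 14.3% of all genes, and 5 and 4 of 35 against sgUba1 tumors 1 to 3 (median -0.17), beside 20.2% and 17.3% of all genes. With EV tumors in place of sgNC tumors, 14 were higher and 5 lower. Without tumor 6, 5 were higher than in sgNC and without tumor 4, 5 were lower. Against sgUba1 tumors 1 to 3 there were 11 higher without sgUba1 tumor 3, 2 lower without tumor 4 and 7 lower without sgUba1 tumor 1. Rel, an NF-kB subunit (1.11, adjusted p = 0.000707), and Klf2, a factor of quiescent and endothelial cells (1.68, adjusted p = 0.00147), were higher, and Fosl1, an AP-1 factor (-3.33, adjusted p = 0.0014), lower. The epithelial-mesenchymal list, with the same shares beside it, gave 2 of 19 higher and 7 lower (median -0.30), and 1 and 8 against sgUba1 tumors 1 to 3 (median -0.25). Of the 2 higher, 1 was left without sgNC tumor 1 or sgUba1 tumor 5 and 0 without sgNC tumor 3 or sgUba1 tumor 6 or 7, and 4 were lower without sgUba1 tumor 6 or 7. Zeb2, a repressor of epithelial genes (-1.43, adjusted p = 0.000745), and the integrin genes Itgb1 (-0.74, adjusted p = 0.00201) and Itgav (-0.89, adjusted p = 0.00441) were lower, as was Fn1, its most abundant member.

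Mitochondrial transcripts took a larger share of the RNA in tumors 4 to 7 than in any other Myc-CaP library. They held 4.41%, 4.08%, 3.74% and 3.61% of the counts in tumors 4, 5, 6 and 7, 2.21%, 1.5% and 1.93% in sgNC tumors 1, 2 and 3, and 1.5% to 2.51% over the 24 other tumors. In 16 cell libraries the share was 1.4% to 2.15%. Of 13 protein genes of the mitochondrial genome 10 were called higher than in sgNC tumors (median 1.10), beside 15.9% of all genes. In the other comparison 10 were higher and 1 lower (median 1.05), beside 20.2% and 17.3% of all genes. Those named here were chosen after their values were seen. Subunit 4 of complex I, mt-Nd4, held 2081, 1726 and 2060 CPM in sgNC tumors 1 to 3 and 5324, 5184, 4603 and 4439 CPM in tumors 4 to 7 (log2 fold change 1.30, SE 0.12, adjusted p = 0.000436), and the cytochrome oxidase gene mt-Co1 4978, 3573 and 4592 CPM in sgNC tumors 1 to 3 and 10231, 10374, 8723 and 8702 CPM in tumors 4 to 7 (log2 fold change 1.09, adjusted p = 0.00158). The 3 not called were mt-Co2 (-0.10, adjusted p = 0.88), mt-Co3 (0.78, adjusted p = 0.166) and mt-Nd6 (-0.33, adjusted p = 0.0737), of which mt-Nd6 was called lower without tumor 7 (-0.42, adjusted p = 0.0334). The share moves with the gene changes above, and its part in them was not tested.

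Histone genes were called lower in the same tumors. The labels speak of poly-A selection and the methods of the study of RiboErase, and which applies is not known here, so what a histone or mitochondrial share measures is uncertain. Histone transcripts took 0.154% to 0.261% of the counts in tumors 4 to 7 and 0.258% to 0.543% in sgNC tumors. Of 63 histone genes tested 34 were called, all lower than in sgNC tumors (median -0.99), beside 14.3% of all genes. Of the same genes 57 were lower and 2 higher than in sgUba1 tumors 1 to 3 (median -0.93), beside 17.3% and 20.2%. Among the 24 other tumors the share ran from 0.139% to 0.643%, with tumors of mice given TAK-243 at 0.139% to 0.271%. Ribosomal protein genes gave 11 of 93 higher and 6 lower than in sgNC tumors (median 0.10), beside 15.9% and 14.3% of all genes, and 60 and 4 against sgUba1 tumors 1 to 3 (median 0.38), beside 20.2% and 17.3% of all genes.

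Whole chromosomes differed in tumors 4 to 7, here as medians of log2 levels over the mean of the 24 other Myc-CaP tumors. Chromosome 11 was high at 0.30, 0.35, 0.31 and 0.21 in tumors 4, 5, 6 and 7, while the 24 others ran from -0.14 to 0.13. Of its 849 genes 396 were called higher and 43 lower than in sgNC tumors (median 0.34). Over 10247 genes of all chromosomes taken in the same way 19.7% were higher and 17.1% lower. Chromosome 3 was low at -0.37, -0.30, -0.25 and -0.36 (others -0.12 to 0.17), with 210 of 492 genes lower and 25 higher (median -0.30). Chromosome 8 was low at -0.30, -0.27, -0.21 and -0.29 (others -0.16 to 0.13), with 196 of 562 genes lower and 39 higher (median -0.24). Chromosome 9 was low at -0.21, -0.18, -0.22 and -0.23 (others -0.09 to 0.12), with 195 of 590 genes lower and 44 higher (median -0.23). For these 4 chromosomes each of tumors 4 to 7 lay outside the range of all 24 other tumors.

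Parts of chromosomes stood out too, in windows chosen after the data were seen. The first 10 Mb of the X chromosome gave -0.88, -0.83, -0.92 and -0.77 in tumors 4 to 7 (others -0.23 to 0.17), with 23 of 28 genes lower and 1 higher. On chromosome 15, from 70 to 80 Mb, the values were 0.55, 0.57, 0.52 and 0.50 (others -0.59 to 0.39), with 64 of 107 genes higher and 5 lower. On chromosome 17, from 70 to 90 Mb, they were 0.61, 0.49, 0.53 and 0.29 (others -0.10 to 0.12), with 41 of 70 genes higher and 2 lower. Eif2ak2 lies in this window. All 3 windows stand beside 19.7% higher and 17.1% lower over all chromosomes. DNA was not measured. Off chromosomes 3, 5, 6, 8, 9, 11, 15 and 17, 26 of 43 antiviral genes were called higher than in sgNC tumors and 1 lower (median 0.81). Of macrophage markers there, 6 of 13 were higher (median 0.65), both beside 15.9% of all genes. For the 26S proteasome 4 of 6 members on chromosome 11 were higher and 7 of 26 elsewhere. For E1 and E2 genes these counts were 3 of 4 and 4 of 36. Beyond such counts, the part of gene position in the other results was not tested.

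**Figure D5:**
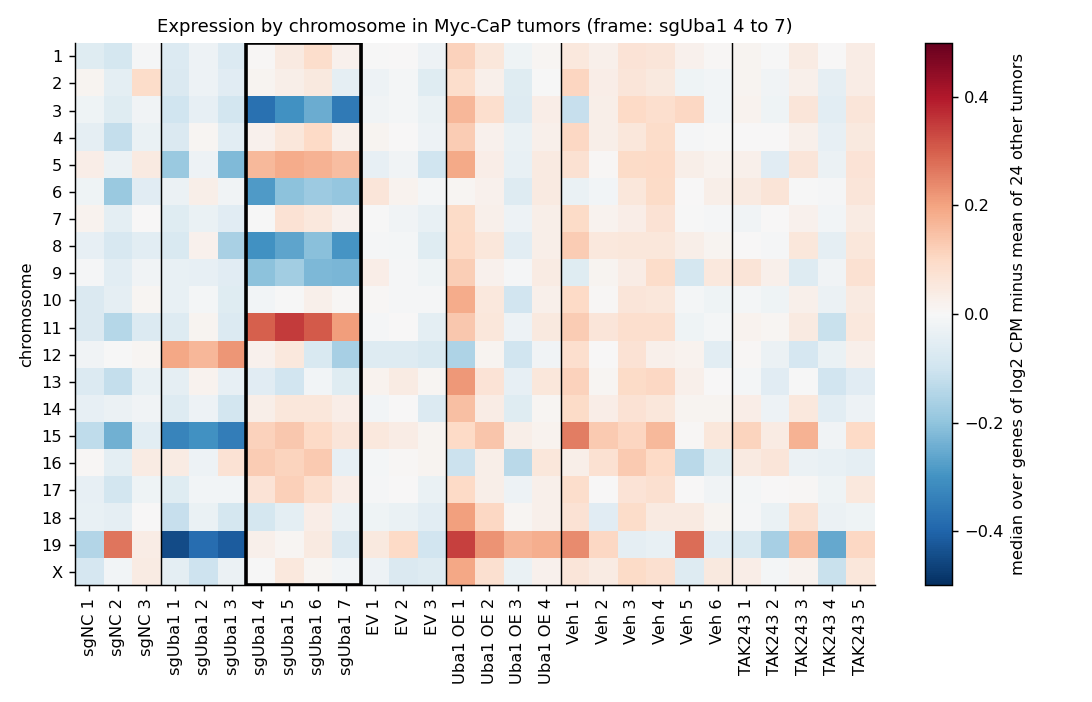
Median log2 level of the genes on each chromosome in each of 28 Myc-CaP tumors, less the mean of the 24 tumors other than sgUba1 4 to 7, as colors, with sgUba1 4 to 7 framed. Tumors 4 to 7 are high for chromosome 11 (0.21 to 0.35) and low for chromosomes 3, 8 and 9.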

How the data were processed

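The authors deposited expected counts and TPM per gene; their processing notes name kallisto and mm10. The expected counts were rounded and fitted with edgeR 4.0.16 quasi-likelihood tests (R 4.3.3) after filterByExpr and TMM, with Benjamini-Hochberg adjusted p under 0.05. Printed CPM use TMM over all Myc-CaP libraries, and log2 CPM add a prior count of 2. Fold changes come from each comparison's own fit. Uba1 was left out of the tests. By rule, genes named are the 12 largest increases and decreases per comparison, genes the study names, and some members of each list. The largest changes were taken among called genes without overlap between groups and with a log2 CPM averaging 1 or more. From each list came up to 4 members with the smallest p plus the most abundant. Further genes, such as Oas3, Ddx58, Eif2ak2, Isg15, Irf9 and Cd3e, were added outside these rules with the data already seen. Members and lists were chosen with earlier results of these data known. GENCODE M21 gave positions for 39867 of 40077 genes. Alternatives were DESeq2 1.42.0, limma 3.58.1 (voom and deposited TPM), other size factors, filters, sample sets, and leaving out each tumor. The steps were tested on simulated data. The B16-BL6 libraries and the single-cell data were not used here. Some genes that were tested, and counted in the lists, are not reported here by name.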

Additional observations from a re-analysis of the deposited data

Results flagged for a closer look

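Each value below lay far from those of the other 3 tumors of the group of 4, relative to the range of the 4, which chance gives in about 1 in 20 groups. The values checked covered 193 genes, 34 lists, 4 library measures and 24 chromosomes or parts of them, so 14 such values are not unusual in number. Causes were not tested.

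Tumor 7 stood apart for 5 genes. It held 298 CPM of Otof, against 179 to 189 CPM in the other 3, and 23.9 CPM of Klk1, against 47.8 to 50.7 CPM. Col1a1, a collagen chain, was at 548 CPM in tumor 7, against 361 to 391 CPM, and Ms4a7 at 26.4 CPM, against 18.3 to 19.3 CPM. Msmo1, a sterol oxidase, was at 10.9 CPM in tumor 7, against 15.6 to 16.3 CPM. The median of chromosome 16 was also lowest in tumor 7, at -0.04 on the log2 scale.

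Tumor 5 was high for Cd4 (3.30 CPM, others 2.16 to 2.35), Gbp2, an interferon-induced GTPase (12.1 CPM, others 6.52 to 7.15), Msmb (3.15 CPM, others 1.36 to 1.58) and Ackr4 (1.12 CPM, others 0.333 to 0.430). Its mean log2 CPM over the T cell list was 1.39, with the others at 0.95 to 1.01.

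Tumor 6 was high for Npy (25.8 CPM, others 0.430 to 1.72), Isg15 (14.3 CPM, others 12.1 to 12.5) and Slc38a5 (1.43 CPM, others 0.287 to 0.333).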

How the results depend on the processing

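Apart from leaving out tumors, other settings gave between 4338 and 5562 calls for tumors 4 to 7 against sgNC tumors. All 7 tumors labelled sgUba1 against sgNC gave 492 (186 higher, 306 lower). Some settings changed more than 1 choice, as limma on TPM changed both the test and the measure. Leaving out each tumor gave 3398 to 5363 calls, 1779 to 2784 higher and 1553 to 2579 lower. DESeq2 called 5291 genes, of which 4715 were shared, and voom 4721, of which 4579 were shared. With EV in place of sgNC tumors 3399 of 5562 calls were shared, and 5 had the opposite sign. On log2(TPM + 1) and log2(TPM + 0.1) the median of all genes was -0.09 and -0.12. Against sgUba1 tumors 1 to 3 the other settings gave 4967 to 5999 calls and leaving out each tumor 4650 to 5848, 2411 to 3154 higher and 2239 to 2694 lower. The fit of 17 tumors, chosen after seeing the data, called 5083 and shared 4814.

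Called genes whose sign turned, as log2 fold changes, were Igfbp5 (0.44), Cyp2c70 (0.63), Sult1e1 (0.24), Ncam1 (0.23) and Serping1 (0.20) with all 7 tumors labelled sgUba1. With EV tumors as controls they were Trp63 (0.77) and G6pdx (-0.053). Genes not called against sgNC that also turned included Hbb-bs (1.01), Myc (-0.50), Cd74 (-0.63), Cxcl9 (-1.03), Cxcl10 (-0.37) and Calr (-0.16). Leaving out single tumors, Myc ranged from -0.40 (without sgNC tumor 2) to 0.31, and Hbb-bt against sgUba1 1 to 3 from -0.67 to 1.46 (without sgUba1 tumor 3); in each case the cause was not tested. No paired analysis was possible because tumors 4 to 7 share no replicate number with the controls or with sgUba1 tumors 1 to 3. Depth, 10685674 to 14168230 counts in tumors 4 to 7, leaves T cell genes at few counts. Counting error is the only error that a level of 0 CPM takes into account.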
